A study of Mus musculus with 24 samples.

Results

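The acute phase and IL-6/IL-1 response was followed through 34 genes in mouse liver. They were chosen by name, with no threshold on any value, as the rows of the liver mRNA count table that carry a listed symbol, and all 34 were among the table's 22429 genes. These names and the further gene lists below were picked with earlier results of these data known. Shares of members set beside those of all genes are therefore descriptive. The members comprise 14 plasma acute phase proteins, 3 fibrinogen chains, 8 proteins that handle metal and heme, 3 cytokine receptor chains, 3 transcription factors and 3 inhibitors and nuclear regulators. Polyadenylated RNA of whole liver was sequenced in 24 libraries, 4 in each of 6 groups, all from male F1 hybrids of C57BL6J and FVBN. The mutant groups carried the genotype Ercc1 d/-, a combination that leaves little of a DNA repair nuclease and gives a mouse that ages early. They were restricted by 30% to 16 weeks of age, fed freely (AL in the plots) to 16 weeks, or fed freely to 7 weeks. The wild-type groups, Ercc1 +/+, were fed freely to 104 weeks, restricted by 30% (DR in the plots) to 16 weeks, or fed freely to 16 weeks. Restriction started at 7 weeks with 10% and reached 30% at 9 weeks, which came to 1.6 g of food a day in the mutant and 2.1 g in the wild type, against 2.3 g and 3.0 g with free feeding. All mice were housed singly, and no meal preceded collection on the last day.

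In the acute phase response, cytokines such as IL-6 and IL-1, released mostly by macrophages, make hepatocytes change the set of plasma proteins they secrete. IL-6 binds Il6ra and the shared chain Il6st and activates the transcription factor Stat3, while IL-1 binds Il1r1 and activates NF-kB, and the C/EBP factors Cebpb and Cebpd act with both. Serum amyloid A, haptoglobin, hemopexin, fibrinogen and the orosomucoids are made in larger amounts, and Socs3 and Il1rn limit the signals.

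The table held raw counts. Levels below are in CPM, the usual depth-scaled count, on library sizes scaled by TMM, and folds are log2 values ± SE from 1 edgeR quasi-likelihood fit over all 24 libraries. A gene was called at a Benjamini-Hochberg adjusted p under 0.05 over 12690 genes tested, and all 34 members were tested. Calls were also checked without 1 library at a time. Each such fit has fewer libraries, so a call can be lost while its fold hardly moves. Ercc1 itself ran from 1.29 to 1.98 CPM in the restricted mutants, 1.08 to 2.08 in the freely fed 16-week mutants and 1.25 to 2.33 in the 7-week mutants, against 2.18 to 4.03 in the 104-week, 2.15 to 4.46 in the restricted and 2.06 to 3.00 in the freely fed 16-week wild type. It was lower in the restricted mutants than in the restricted wild type (-1.18, adjusted p = 0.0033) and not called with free feeding at 16 weeks (-0.78, adjusted p = 0.0754), where the highest mutant library lay within the wild-type range. The summed level of 8 hepatocyte markers lay between 81835 and 167940 CPM in all libraries. Samples are numbered in the labels without a statement that every number is its own mouse. The p-values therefore refer to the spread between libraries, part of which may be technical. In whole-tissue RNA, fewer cells of a type and less RNA per cell cannot be told apart.

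The stretches of DNA just before the start sites of 8 members are shown first, to set the members that swung most between libraries (Saa1, Saa2, Saa3, Mt1 and Mt2) beside 3 that were steadier. Each is the 250 bases before a RefSeq start site in GRCm38.p6, given 5′ to 3′ in the direction of the gene, and 28 of the 34 members had such a promoter, with 32 in all. Capitals mark matches on either strand. In the 4 Saa genes, Fgb and Steap4 they mark the STAT-type pattern TTCNNNGAA, the C/EBP-type pattern TTNNGNAA and the NF-kB-type pattern GGGNNNNTCC, and in Mt1 and Mt2 the core of the metal response element, TGCACNC or TGCGCNC. The windows are at chr7:46742981-46743230, minus strand (Saa1), chr7:46751583-46751832, plus strand (Saa2), chr7:46715677-46715926, minus strand (Saa3), chr7:46732604-46732853, minus strand (Saa4), chr3:83049864-83050113, minus strand (Fgb), chr5:7960222-7960471, plus strand (Steap4), chr8:94178839-94179088, plus strand (Mt1) and chr8:94172368-94172617, plus strand (Mt2).
Saa1: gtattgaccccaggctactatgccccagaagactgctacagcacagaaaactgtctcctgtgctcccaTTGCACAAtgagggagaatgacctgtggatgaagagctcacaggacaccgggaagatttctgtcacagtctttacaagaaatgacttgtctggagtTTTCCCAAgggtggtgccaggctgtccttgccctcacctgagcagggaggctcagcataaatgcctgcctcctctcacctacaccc
Saa2: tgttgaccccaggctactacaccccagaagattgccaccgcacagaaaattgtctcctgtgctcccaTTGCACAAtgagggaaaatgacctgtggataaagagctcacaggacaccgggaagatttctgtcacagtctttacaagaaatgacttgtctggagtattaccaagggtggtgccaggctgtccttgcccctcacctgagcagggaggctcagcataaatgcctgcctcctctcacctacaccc
Saa3: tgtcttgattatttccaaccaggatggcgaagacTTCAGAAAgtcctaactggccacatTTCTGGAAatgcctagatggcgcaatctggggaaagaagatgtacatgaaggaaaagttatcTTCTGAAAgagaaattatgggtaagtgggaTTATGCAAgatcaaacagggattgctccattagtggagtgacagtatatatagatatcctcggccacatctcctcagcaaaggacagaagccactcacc
Saa4: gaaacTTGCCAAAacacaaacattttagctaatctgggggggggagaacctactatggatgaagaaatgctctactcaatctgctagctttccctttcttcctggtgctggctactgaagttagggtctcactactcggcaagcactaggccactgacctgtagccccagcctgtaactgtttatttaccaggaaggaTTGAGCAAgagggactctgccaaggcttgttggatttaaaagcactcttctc
Fgb: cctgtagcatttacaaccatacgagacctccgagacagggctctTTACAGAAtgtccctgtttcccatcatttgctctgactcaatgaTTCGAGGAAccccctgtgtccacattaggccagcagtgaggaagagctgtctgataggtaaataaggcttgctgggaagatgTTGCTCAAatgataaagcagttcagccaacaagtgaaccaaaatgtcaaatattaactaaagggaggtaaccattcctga
Steap4: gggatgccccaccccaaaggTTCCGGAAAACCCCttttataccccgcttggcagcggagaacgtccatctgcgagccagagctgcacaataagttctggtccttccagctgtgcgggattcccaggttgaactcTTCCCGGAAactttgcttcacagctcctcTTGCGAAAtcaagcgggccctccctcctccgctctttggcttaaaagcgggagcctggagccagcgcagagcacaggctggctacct
Mt1: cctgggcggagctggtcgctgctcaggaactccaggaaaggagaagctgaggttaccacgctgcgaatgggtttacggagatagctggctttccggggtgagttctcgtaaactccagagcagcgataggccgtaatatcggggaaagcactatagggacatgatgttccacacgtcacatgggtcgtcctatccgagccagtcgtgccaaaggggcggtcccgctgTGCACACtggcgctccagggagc
Mt2: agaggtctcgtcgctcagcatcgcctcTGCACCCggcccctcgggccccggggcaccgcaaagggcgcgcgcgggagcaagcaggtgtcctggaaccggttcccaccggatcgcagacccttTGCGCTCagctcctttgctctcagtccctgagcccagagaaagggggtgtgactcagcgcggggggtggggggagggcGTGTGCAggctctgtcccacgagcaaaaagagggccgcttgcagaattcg

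Saa1 and Saa2 were 96% identical over 247 aligned bases of these windows, and both hold the C/EBP-type match TTGCACAA at nearly the same distance from the start. Fgb and Steap4 each hold 1 STAT-type match, which none of the 4 Saa windows does, and in Steap4 a C/EBP-type match overlaps the NF-kB-type match. Mt2 holds 3 matches to the metal response core and Mt1 holds 1. Of the 32 member promoters, 7 (21.9%) hold TTCNNNGAA, against 7.01% of all 32817 promoters in the table. TTNNGNAA was found in 22 (68.8%) against 36.8%, GGGNNNNTCC in 9 (28.1%) against 16.5%, and the metal response core in 4 (12.5%) against 21.4%. A match gives letters in a window and shows no bound factor, and the windows of Saa2, Saa3, Steap4 and Mt1 end inside the annotated gene.

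Natural ageing moved the most members in a single direction. In the 104-week against the freely fed 16-week wild type, 13 of 34 members rose and 0 fell, where 5.13% of all genes tested rose and 5% fell. The members' median log2 fold change was 0.94, against 0.02 over all genes tested, and 31 of 34 were positive. In 10 members all 4 old livers exceeded all 4 young ones, which 8.21% of genes tested did. They included the fibrinogen chains Fgb and Fgg, the amyloid P component Apcs, Stat3, Il1r1 and the feedback inhibitor Socs3. In the freely fed mutant against its wild type at 16 weeks, 5 members rose (14.7%, where 5.1% of genes did) and 1 fell (2.94%, where 4.85% did), with a median of 0.46 against 0.02. With both genotypes restricted, 2 members rose and 2 fell (5.88% each), where 9.58% of genes rose and 8.7% fell. These shares were below the background. In the mutant at 16 against 7 weeks, 3 members rose (8.82%) and 0 fell, where 0.355% of genes rose and 0.331% fell. No wild type of 7 weeks was sampled, so growth and the early ageing of the mutant cannot be told apart in this comparison.

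By restriction Saa1, Saa2 and Saa4 fell in both genotypes and Saa3 in the mutant. In the mutant 5 members fell (14.7%) and 1 rose (2.94%), where 6.33% of genes fell and 4.91% rose. In the wild type 3 fell (8.82%) and 0 rose, where 7.3% of genes fell and 6.3% rose. Every restricted library lay below every freely fed one for 5 members in the mutant, where 9.6% of genes did so, and for 7 members in the wild type, where 9.06% did. Set against the 104-week wild type, the freely fed 16-week mutant had 11 members lower (32.4%) and 0 higher, where 7.19% of genes were lower and 7.47% higher. These comparisons share groups of libraries (the freely fed 16-week wild type enters 3 of them), so a level in that group moves several folds together. Over the 7 comparisons of a pair of groups, 26 of the 34 members were called at least once and 8 never. The matching share of all genes was not taken, so this count shows nothing particular to the members. For the difference in the effect of restriction between genotypes, edgeR called 0 members, where 1.5% of genes were called, with 2 members at an unadjusted p under 0.05 (14.2% of all genes), and DESeq2 also called 0.

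**Figure D1:**
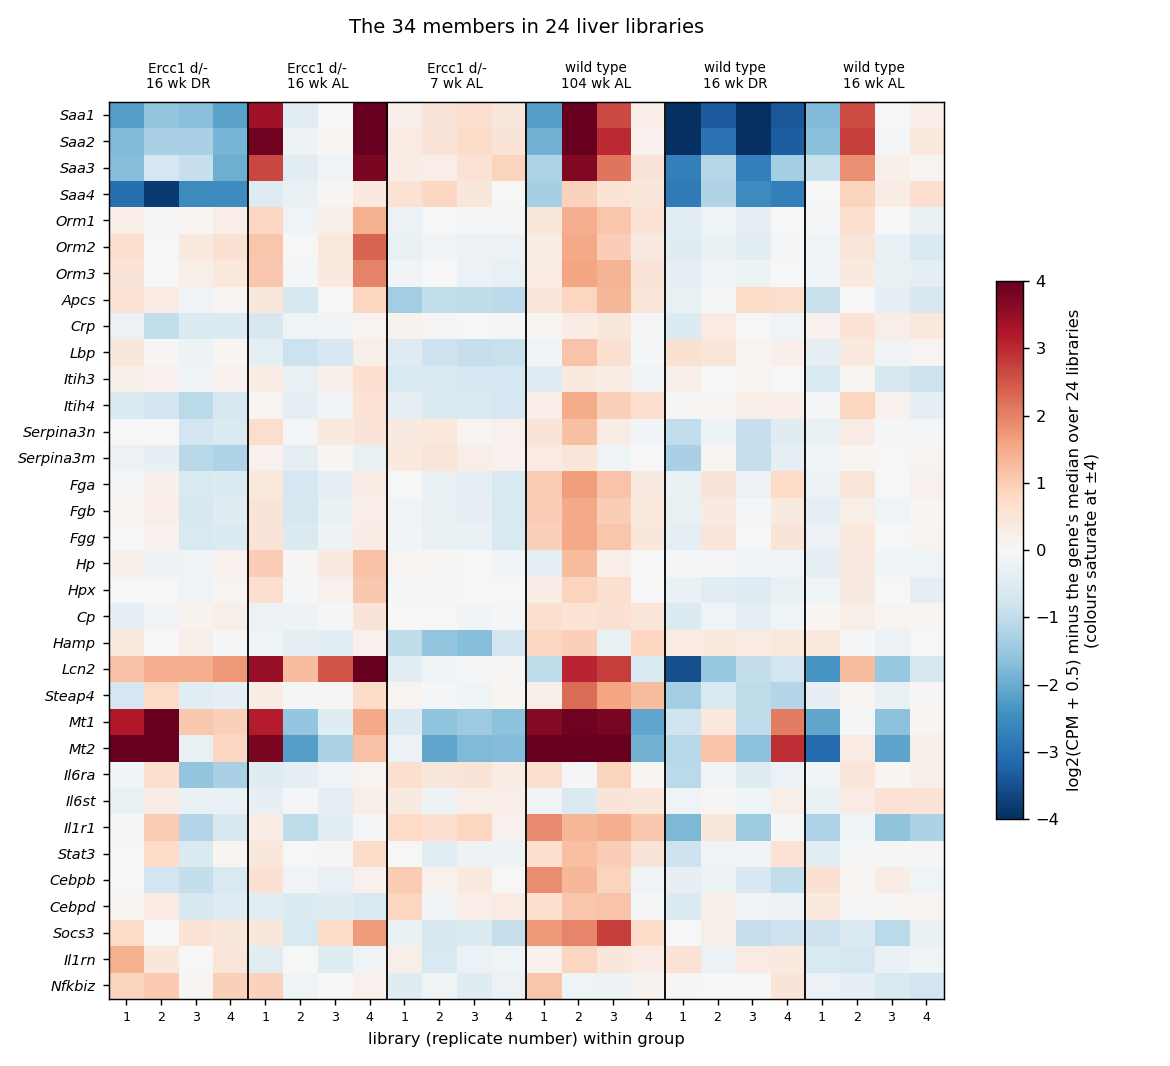
Each row is a member and each column a library, with groups set apart by black lines; the colour gives log2(CPM + 0.5) minus the gene's median over the 24 libraries, cut off at 4 in either direction. The 4 Saa rows are blue in both restricted groups, and Saa1, Saa2 and Saa3 are deep red in some freely fed libraries. In the fibrinogen rows replicates 1 to 3 of the 104-week wild type are the highest libraries.

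The inducible serum amyloid A genes Saa1, Saa2 and Saa3, whose products travel on high-density lipoprotein in inflammation, had the widest range of the plasma proteins. Saa1 (chr7:46740497-46742980, GRCm38) stood at 20.5, 31.8, 29.8 and 21.6 CPM in the restricted mutants, 1028, 71.9, 97.4 and 2109 in the freely fed 16-week mutants and 111, 138, 153 and 133 in the 7-week mutants. In the wild type it stood at 20.8, 2479, 604 and 116 CPM at 104 weeks, 1.71, 9.17, 2.57 and 8.74 under restriction and 27.9, 594, 95.9 and 116 with free feeding at 16 weeks. Replicates 1 and 4 of the freely fed mutants, replicates 2 and 3 of the old wild type and replicate 2 of the young wild type stood far above their groups, while the 7-week mutants lay within 1.39-fold of each other. The old group spanned 119-fold from lowest to highest library.

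Both restricted groups lay wholly below their freely fed groups. Saa1 fell by restriction in the wild type (-5.25 ± 1.39, adjusted p = 0.0168, edgeR) and in the mutant (-4.99 ± 1.34, adjusted p = 0.0201). The call in the wild type was lost without replicate 2 of the freely fed 16-week wild type (adjusted p up to 0.0637), with the log2 fold change at -3.87 without replicate 2 of the freely fed 16-week wild type, and that in the mutant was lost without replicate 1, 2 or 4 of the restricted mutants or replicate 4 of the freely fed 16-week mutants (adjusted p up to 0.0667), with the log2 fold change at -3.94 without replicate 4 of the freely fed 16-week mutants. With the 8 libraries that hold many spikes (defined further on) left out together, the log2 fold change was -1.80 in the mutant and -5.25 in the wild type. These libraries were picked by the members' own values, so no p is given with them left out. The spike rule marks only high libraries. In the mutant those left out were replicates 1 and 4 with free feeding, the highest for Saa1, and replicate 2 under restriction. In the wild type they were replicate 2 with free feeding and replicates 2 and 4 under restriction, the highest there. These folds are therefore no measure of a difference between genotypes. With free feeding, Saa1 overlapped between ages and between genotypes and was not called, with 95% intervals of -0.51 to 4.41 for age and -0.47 to 4.45 for the freely fed mutant on the log2 scale.

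Under restriction the 4 mutant libraries all stood above the 4 wild-type libraries for Saa1 and for Saa2. This difference of 2.24 ± 1.25 for Saa1 (log2) was not called, at an adjusted p of 0.232. In this comparison 5 members were higher without overlap (14.7%, where 8.67% of genes were): Saa1, Saa2, Lcn2, Orm2 and Hpx.

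Saa2 (chr7:46751790-46754313) is a close copy of Saa1: their transcripts were 94.4% identical and 9.11% of the 50-base stretches of Saa1 also occur in Saa2, so reads from those stretches could be credited to either. It stood at 16.3, 22.8, 22.8 and 15.4 CPM in the restricted mutants, 849, 48.7, 59.8 and 1497 in the freely fed 16-week mutants and 71.7, 81.4, 95.1 and 81.4 in the 7-week mutants. The wild type gave 14.5, 2353, 448 and 64.5 CPM at 104 weeks, 0.949, 6.95, 1.93 and 5.26 under restriction and 17.3, 388, 53.7 and 75.5 with free feeding at 16 weeks. In 6 of 6 groups its highest library was that of Saa1. It fell by restriction in the wild type (-5.18 ± 1.47, adjusted p = 0.025) and the mutant (-4.99 ± 1.41, adjusted p = 0.0268); the first call was lost without replicate 1, 3 or 4 of the restricted wild type or replicate 2 of the freely fed 16-week wild type (adjusted p up to 0.0926), with the log2 fold change at -3.72 without replicate 2 of the freely fed 16-week wild type, and the second was lost without any replicate of the restricted mutants or replicate 4 of the freely fed 16-week mutants (adjusted p up to 0.0792), with the log2 fold change at -4.05 without replicate 4 of the freely fed 16-week mutants. With the 8 spike-rich libraries left out the log2 fold change in the mutant was -1.56.

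Saa3 (chr7:46711998-46715700), which in mice is also made by macrophages and fat, stood at 1.69, 3.97, 3.33 and 1.36 CPM in the restricted mutants against 45.1, 4.9, 6.2 and 96.4 in the freely fed ones, with no overlap. It fell there (-3.87 ± 1.04, adjusted p = 0.0187), a call that was lost without replicate 1 or 4 of the restricted mutants or replicate 4 of the freely fed 16-week mutants (adjusted p up to 0.0787), with the log2 fold change at -2.84 without replicate 4 of the freely fed 16-week mutants. With the 8 spike-rich libraries left out the log2 fold change was -1.36. In the wild type it stood at 0.569, 2.72, 0.578 and 2.28 CPM under restriction against 3.33, 25.1, 7.84 and 7.2 with free feeding, again without overlap but not called (-2.86 ± 1.08, adjusted p = 0.0863). The 7-week mutants held 8.39, 8.09, 10.3 and 12.7 CPM and the old wild type 2.58, 92.4, 31.2 and 9.82 CPM, with replicate 2 of the old group the highest.

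Saa4 (chr7:46727998-46732603), the form that is made all the time and changes little in inflammation, also fell by restriction, with smaller swings than the other 3. It stood at 22, 12.2, 30.7 and 31.3 CPM in the restricted mutants, 126, 147, 187 and 239 in the freely fed 16-week mutants and 271, 319.8, 246 and 184 in the 7-week mutants. In the wild type the values were 72.6, 347, 266 and 249 CPM at 104 weeks, 24.8, 78.9, 30.6 and 26.9 under restriction and 178, 335, 224 and 291 with free feeding. No restricted library reached a freely fed one of the same genotype. The fall was -2.86 ± 0.44, adjusted p = 0.000132 in the mutant and -2.67 ± 0.43, adjusted p = 0.000337 in the wild type (edgeR, Benjamini-Hochberg). In the mutant the call held without any 1 library (adjusted p at most 0.00114), and in the wild type it held without any 1 library (adjusted p at most 0.00325). The difference between the falls had a log2 estimate of -0.19 ± 0.58 with a 95% interval of -1.41 to 1.03. The 4 Saa genes lie in 1 cluster on chromosome 7.

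**Figure D2:**
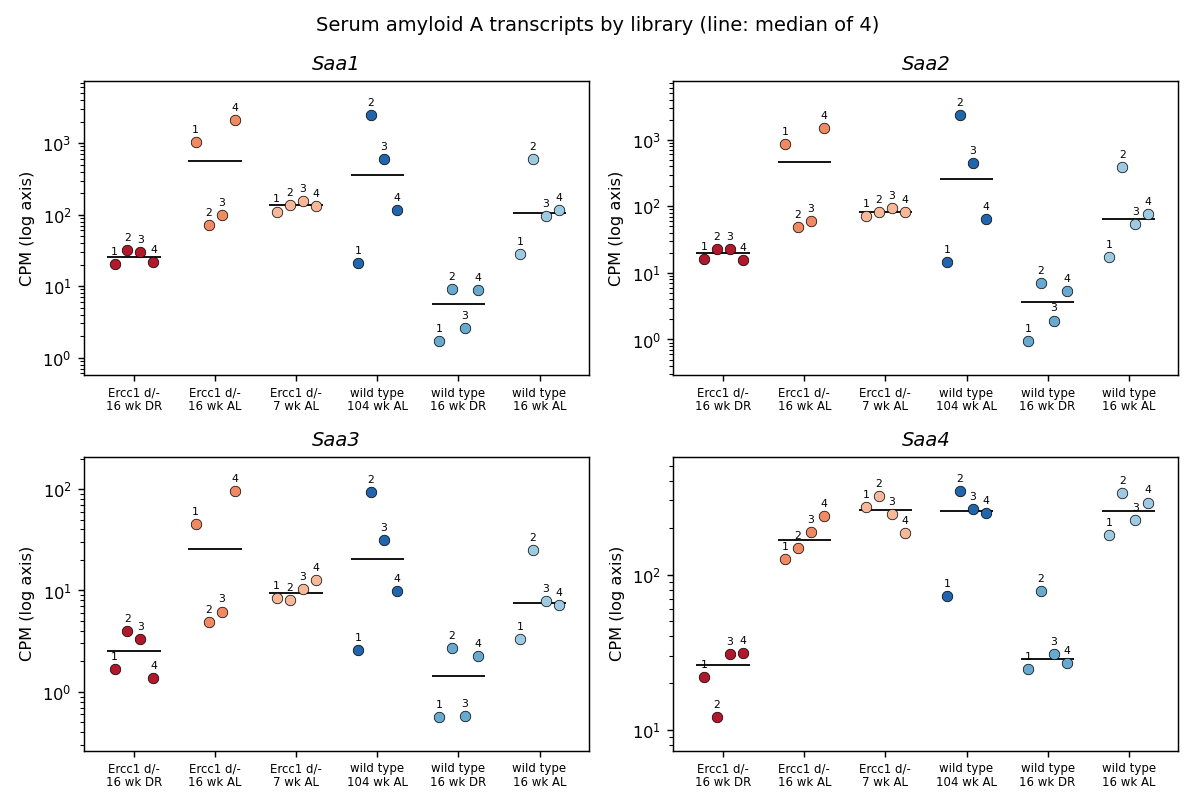
CPM of the 4 serum amyloid A genes on log axes, with 1 point per library, numbered by replicate, and a line at the median of 4. The medians of both restricted groups are the lowest in each panel, and in Saa1, Saa2 and Saa3 the same few libraries rise far above their groups.

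The orosomucoids, acute phase glycoproteins that carry small molecules in plasma, moved with age and with the mutant, within a narrower range. Orm1 (chr4:63344560-63348163) stood at 788, 1580.2, 1238 and 836 CPM in the old against 559, 888, 566 and 462 in the young wild type, where replicate 2 overlapped the old group, and it rose (0.84 ± 0.26, adjusted p = 0.0391). That call was lost without replicate 2 or 3 of the 104-week wild type or replicate 1, 3 or 4 of the freely fed 16-week wild type (adjusted p up to 0.159). Orm2 (chr4:63362449-63365878) stood at 320.3, 144, 198 and 749 CPM in the freely fed 16-week mutants against 131, 208, 122 and 99.3 in the wild type, with mutant replicate 4 far above the rest and overlap between the groups. It rose (1.33 ± 0.37, adjusted p = 0.0237), and the call was lost without replicate 4 of the freely fed 16-week mutants or replicate 1, 3 or 4 of the freely fed 16-week wild type (adjusted p up to 0.151), with the log2 fold change at 0.66 without replicate 4 of the freely fed 16-week mutants. Orm1 and Orm2 share 20.4% of their 50-base stretches, and their separate values are uncertain to that extent.

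Orm3 (chr4:63356162-63359511) rose both in the mutant and in the old wild type. It stood at 66.1, 30.1, 41 and 125 CPM in the freely fed mutants, 39.7, 95.2, 80.5 and 45.3 in the old wild type and 29.1, 41.2, 25.4 and 24.3 in the young wild type. The rise was 1.13 ± 0.32, adjusted p = 0.0269 in the mutant, where the call was lost without replicate 1 or 4 of the freely fed 16-week mutants or replicate 1, 3 or 4 of the freely fed 16-week wild type (adjusted p up to 0.16), with the log2 fold change at 0.61 without replicate 4 of the freely fed 16-week mutants. With age it was 1.12 ± 0.32, adjusted p = 0.0292, which was lost without replicate 2 or 3 of the 104-week wild type or replicate 1, 3 or 4 of the freely fed 16-week wild type (adjusted p up to 0.113). Both groups overlapped the young wild type.

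Apcs (chr1:172893961-172895041) is the serum amyloid P component, a major acute phase reactant of mice. It rose from 16 to 104 weeks in the wild type and from 7 to 16 weeks in the mutant. It stood at 143, 187, 258 and 146 CPM in the old against 54.8, 104, 78.1 and 65.7 in the young wild type, with no overlap (1.28 ± 0.28, adjusted p = 0.00529). The call held without any 1 library (adjusted p at most 0.0251). In the mutant it stood at 141, 65.2, 102 and 185 CPM at 16 weeks against 39.1, 52.1, 50.6 and 49.6 at 7 weeks, again without overlap (1.37 ± 0.29, adjusted p = 0.0235), although this call was lost without replicate 1 or 4 of the freely fed 16-week mutants or any replicate of the 7-week mutants (adjusted p up to 0.102).

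C-reactive protein, the leading acute phase protein of humans but a weak reactant in mice, fell in the mutant. Crp (chr1:172698055-172833031) stood at 121, 164, 174 and 200.1 CPM in the freely fed mutants against 209.7, 276, 222 and 252 in the wild type (-0.54 ± 0.17, adjusted p = 0.046), with no overlap. The call was lost without replicate 1, 2 or 3 of the freely fed 16-week mutants or replicate 2, 3 or 4 of the freely fed 16-week wild type (adjusted p up to 0.168). It was also lower in the restricted mutants, at 159, 95.2, 127 and 128 CPM, than in the restricted wild type, at 129, 237, 184 and 166 CPM (-0.49 ± 0.17, adjusted p = 0.0473), with overlap. That call was lost without replicate 2, 3 or 4 of the restricted mutants or replicate 2, 3 or 4 of the restricted wild type (adjusted p up to 0.206), with the log2 fold change at -0.33 without replicate 2 of the restricted wild type.

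Lbp (chr2:158306493-158332852), the lipopolysaccharide-binding protein that hands bacterial lipid to CD14, was called in 1 comparison only of the 7. It stood at 59.4, 43, 50.2 and 91.5 CPM in the freely fed 16-week mutants against 72.8, 175, 122 and 75.3 in the old wild type and was lower there (-0.87 ± 0.25, adjusted p = 0.0204), with mutant replicate 4 inside the range of the old group. The call was lost without replicate 2 or 3 of the freely fed 16-week mutants or replicate 2 or 3 of the 104-week wild type (adjusted p up to 0.113), with the log2 fold change at -0.56 without replicate 2 of the 104-week wild type.

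The inter-alpha-trypsin inhibitor heavy chains Itih3 and Itih4, which bind hyaluronan or circulate as acute phase proteins, lie side by side on chromosome 14 and were called in different comparisons. Itih3 (chr14:30908572-30923760) stood at 1486, 987, 1396 and 1932 CPM in the freely fed 16-week mutants, 802, 815, 760.0 and 751 in the 7-week mutants and 791, 1289.8, 786 and 684 in the freely fed wild type. It rose over the wild type, with overlap (0.71 ± 0.20, adjusted p = 0.022), a call that was lost without replicate 1 or 4 of the freely fed 16-week mutants or replicate 1, 3 or 4 of the freely fed 16-week wild type (adjusted p up to 0.0971), and over the 7-week mutant without overlap (0.89 ± 0.20, adjusted p = 0.0331), a call that was lost without replicate 1, 3 or 4 of the freely fed 16-week mutants or any replicate of the 7-week mutants (adjusted p up to 0.147). Itih4 (chr14:30886476-30902353) stood at 1127, 999, 792 and 1095 CPM in the restricted mutants against 1746, 1831, 1974 and 2035 in the restricted wild type and 1818, 1284, 1574 and 2513 in the freely fed mutants. It fell against the restricted wild type with no overlap (-0.92 ± 0.24, adjusted p = 0.00864), where the call held without any 1 library (adjusted p at most 0.0327). It also fell against the freely fed mutants, again with no overlap (-0.84 ± 0.24, adjusted p = 0.0214), where the call was lost without replicate 3 of the restricted mutants or replicate 4 of the freely fed 16-week mutants (adjusted p up to 0.107). The freely fed mutants in turn were lower than the old wild type, at 2024, 4739, 3252 and 2682 CPM (-0.82 ± 0.24, adjusted p = 0.0205), a call that was lost without replicate 2 or 3 of the freely fed 16-week mutants or replicate 2 of the 104-week wild type (adjusted p up to 0.104). These were the 2 members with an unadjusted p under 0.05 for the difference in diet effect between genotypes, -0.68 ± 0.28 for Itih3 and -0.79 ± 0.33 for Itih4 on the log2 scale, with adjusted p of 0.26 and 0.28.

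The serine protease inhibitors Serpina3n and Serpina3m, mouse relatives of human antichymotrypsin, were called nowhere. Group means of Serpina3n lay between 1026 CPM in the 104-week wild type and 455 CPM in the restricted wild type, and those of Serpina3m between 6201 CPM in the 7-week mutants and 3119.7 CPM in the restricted mutants. The smallest adjusted p of Serpina3n, 0.0504, was in the restricted against the freely fed mutants (-0.71 ± 0.23, log2).

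The 3 fibrinogen chains, which assemble into the precursor of the fibrin clot, rose together with age. Fga (chr3:83026076-83033627) stood at 7437, 11529, 7977 and 4680.3 CPM in the old against 3079, 5072, 3696 and 4074 in the young wild type. Fgb (chr3:83040141-83049863) stood at 7157, 10172, 7097 and 4786 CPM in the old against 2746, 4257, 3209 and 3739.5 in the young wild type. Fgg (chr3:83007724-83015049) stood at 5238, 7790.5, 5829.9 and 3726 CPM in the old against 2313, 3607, 2734 and 2926 in the young wild type. For Fgb and Fgg no old library overlapped the young group, whereas for Fga old replicate 4 lay below young replicate 2. The rises were 1.07 ± 0.25, adjusted p = 0.00676 for Fgb, 0.96 ± 0.25, adjusted p = 0.014 for Fgg and 0.99 ± 0.28, adjusted p = 0.0286 for Fga. That of Fgb held without any 1 library (adjusted p at most 0.0398), that of Fgg was lost without replicate 2 of the 104-week wild type or replicate 1 of the freely fed 16-week wild type (adjusted p up to 0.0724) and that of Fga was lost without replicate 1, 2 or 3 of the 104-week wild type or replicate 1, 3 or 4 of the freely fed 16-week wild type (adjusted p up to 0.127).

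In the freely fed mutant at 16 weeks the chains were near the young wild type. Fga stood at 4932, 2309, 2869 and 4490.3 CPM, Fgb at 5151, 2318, 2961 and 4285 CPM and Fgg at 3862, 1815, 2348 and 3320.3 CPM in the freely fed mutants, values that overlapped the young wild type. For each chain, only replicate 1 of these mutants reached into the range of the old wild type. All 3 chains were lower in the mutant than in the old wild type, with log2 fold changes of -1.11 ± 0.29, adjusted p = 0.0103 for Fga, -0.99 ± 0.25, adjusted p = 0.00818 for Fgb and -0.99 ± 0.25, adjusted p = 0.00818 for Fgg. Each of these calls held without any 1 library. Against the freely fed wild type of the same age the chains were not called, with 95% intervals on the log2 scale of -0.72 to 0.47 for Fga, -0.44 to 0.59 for Fgb and -0.55 to 0.49 for Fgg. In every group of 4 the highest library was the same for all 3 chains, and they lie in 1 cluster on chromosome 3.

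Haptoglobin and hemopexin, the plasma scavengers of hemoglobin and heme, were not called in any comparison. Group means of Hp ranged between 5498 CPM in the freely fed 16-week mutants and 3167 CPM in the restricted wild type, and those of Hpx between 4431 CPM in the freely fed 16-week mutants and 2358 CPM in the restricted wild type. The smallest adjusted p of Hp was 0.0682, for the freely fed mutants over the wild type (0.76 ± 0.26, log2). Ceruloplasmin, Cp (chr3:19957054-20009145), which carries copper and oxidises iron, had a small and even rise with age, at 1842, 1734, 1788 and 1642 CPM in the old against 1229, 1374, 1265 and 1240.3 in the young wild type with no overlap (0.46 ± 0.14, adjusted p = 0.0431). That call was lost without replicate 1, 2 or 3 of the 104-week wild type or any replicate of the freely fed 16-week wild type (adjusted p up to 0.115). The log2 fold change stayed between 0.42 and 0.49 without any 1 library. Cp stood at 1004, 1017, 1108 and 1686 CPM in the freely fed 16-week mutants and was lower than in the old wild type (-0.54 ± 0.14, adjusted p = 0.012), with mutant replicate 4 inside the old range; this call was lost without replicate 2 of the freely fed 16-week mutants (adjusted p up to 0.0525).

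Hepcidin, the IL-6-inducible hormone that blocks iron export, was higher in the mutant at the later age. Hamp (chr7:30942368-30944032) stood at 512, 435, 423 and 639.7 CPM in the 16-week mutants against 281, 193, 175 and 343 at 7 weeks, with no overlap, and rose (1.02 ± 0.23, adjusted p = 0.0319). This call was lost without replicate 1 or 4 of the freely fed 16-week mutants or replicate 1, 2 or 3 of the 7-week mutants (adjusted p up to 0.136). In the old wild type, at 1024, 1105, 475 and 1038 CPM, replicate 3 stood far below the other 3 libraries, and the 16-week mutants were lower than this group (-0.86 ± 0.22, adjusted p = 0.0109), a call that held without any 1 library (adjusted p at most 0.0422). Hamp shares 16.6% of its 50-base stretches with Hamp2.

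Lipocalin 2, an iron-siderophore trap that hepatocytes and neutrophils release, gave the largest fold of the freely fed mutant among called members. Lcn2 (chr2:32384633-32388252) stood at 40.7, 49.1, 49.1 and 59.9 CPM in the restricted mutants, 202, 42.5, 104 and 371 in the freely fed 16-week mutants and 13.1, 16, 17 and 18.5 in the 7-week mutants. It stood at 8.48, 149.9, 123 and 11.4 CPM in the old, 1.09, 5.95, 8.93 and 10.3 in the restricted and 3.06, 43, 5.87 and 11.2 in the freely fed 16-week wild type. Under restriction every mutant library exceeded every wild-type one, and with free feeding wild-type replicate 2 reached the lowest mutant.

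Lcn2 rose in the mutant with free feeding (3.52 ± 0.94, adjusted p = 0.0209) and with restriction (2.94 ± 0.94, adjusted p = 0.0359). The first call was lost without replicate 4 of the freely fed 16-week mutants or replicate 1, 3 or 4 of the freely fed 16-week wild type (adjusted p up to 0.0718), with the log2 fold change at 2.89 without replicate 4 of the freely fed 16-week mutants and at 4.76 without replicate 2 of the freely fed 16-week wild type, and the second was lost without replicate 2, 3 or 4 of the restricted mutants or any replicate of the restricted wild type (adjusted p up to 0.0834). Without any 1 library the second fold stayed between 2.56 and 3.26 (log2). Of 12 neutrophil markers, 4 passed the filter on low counts, and S100a8 rose in the freely fed mutant (2.14 ± 0.63, adjusted p = 0.029), while the summed level of all 12 was 5.77 to 9.91 CPM in the freely fed mutants against 8.52 to 11.9 in the wild type. With restriction the sums were 6.83 to 10.2 CPM in the mutant against 3.32 to 8.67 in the wild type, and 3 of the 4 markers tested rose, where 9.58% of all genes did. Mpo, Elane and Ngp had no count in the restricted mutants, Mpo, Camp and Mmp8 none in the freely fed mutants, Mpo, Elane, Ngp and Mmp8 none in the restricted wild type and Ngp, Ltf, Retnlg and Mmp8 none in the freely fed 16-week wild type. The part of neutrophils in the level of Lcn2 was not tested.

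Steap4 (chr5:7960457-7982213), a metalloreductase that cytokines induce in liver, stood at 87.3, 355, 222 and 177 CPM in the old against 59.4, 80.9, 60.7 and 77.4 in the young wild type, with no overlap. It rose (1.59 ± 0.33, adjusted p = 0.00298), and the call held without any 1 library (adjusted p at most 0.0171). In the restricted mutants it stood at 46.1, 128, 55.3 and 57.5 CPM against 28.8, 48.5, 36.4 and 32.9 in the restricted wild type, with overlap. It rose there too (0.97 ± 0.33, adjusted p = 0.0407), although this call was lost without replicate 2 of the restricted mutants or replicate 1, 3 or 4 of the restricted wild type (adjusted p up to 0.227), with the log2 fold change at 0.53 without replicate 2 of the restricted mutants. The freely fed mutants held 91.3, 72.4, 77.5 and 124 CPM and were lower than the old wild type (-1.20 ± 0.32, adjusted p = 0.0143), with overlap, a call that was lost without replicate 2 of the freely fed 16-week mutants or replicate 2 of the 104-week wild type (adjusted p up to 0.0767).

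The metallothioneins Mt1 and Mt2, small zinc and copper binders induced by metals, glucocorticoids and IL-6, had, with Saa1 and Saa2, the widest spans within a group. Mt2 (chr8:94172664-94173568) stood at 712, 1049, 25.8 and 56.3 CPM in the restricted mutants, 433, 6.44, 12.8 and 71.7 in the freely fed 16-week mutants and 26.7, 7.09, 8.96 and 9.07 in the 7-week mutants. The wild type gave 925, 1320.3, 1178 and 8.08 CPM at 104 weeks, 14.5, 70.3, 9.76 and 248 under restriction and 3.28, 40.1, 6.94 and 37.3 with free feeding. In the old group 3 libraries were high and replicate 4 was at the level of the lowest young ones, a 163-fold span.

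Mt1 (chr8:94179082-94180327) followed Mt2, with the same highest library in 5 of 6 groups. It stood at 325, 379, 356 and 5.6 CPM in the old against 5.5, 23.6, 7.6 and 26.6 in the young wild type and rose (4.08 ± 1.22, adjusted p = 0.0397), although old replicate 4 lay at the bottom of the young range. The call was lost without replicate 1, 2 or 3 of the 104-week wild type or any replicate of the freely fed 16-week wild type (adjusted p up to 0.114), with the log2 fold change at 4.49 without replicate 4 of the 104-week wild type. The fold of Mt2 was not called (5.30 ± 1.69, adjusted p = 0.0535) and passed the threshold when old replicate 4 was left out, at 5.71 and an adjusted p of 0.0266. In the other groups Mt1 stood at 235, 517, 53.3 and 49.2 CPM in the restricted mutants, 223, 8.21, 17.9 and 72.3 in the freely fed mutants, 17.1, 7.87, 8.89 and 7.73 in the 7-week mutants and 14.3, 33.9, 12.1 and 106 in the restricted wild type. Mt1 and Mt2 share no 50-base stretch. The highest library of a group was the same for Mt1 and Saa1 in 2 of 6 groups and for Mt2 and Saa1 in 3 of 6.

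**Figure D3:**
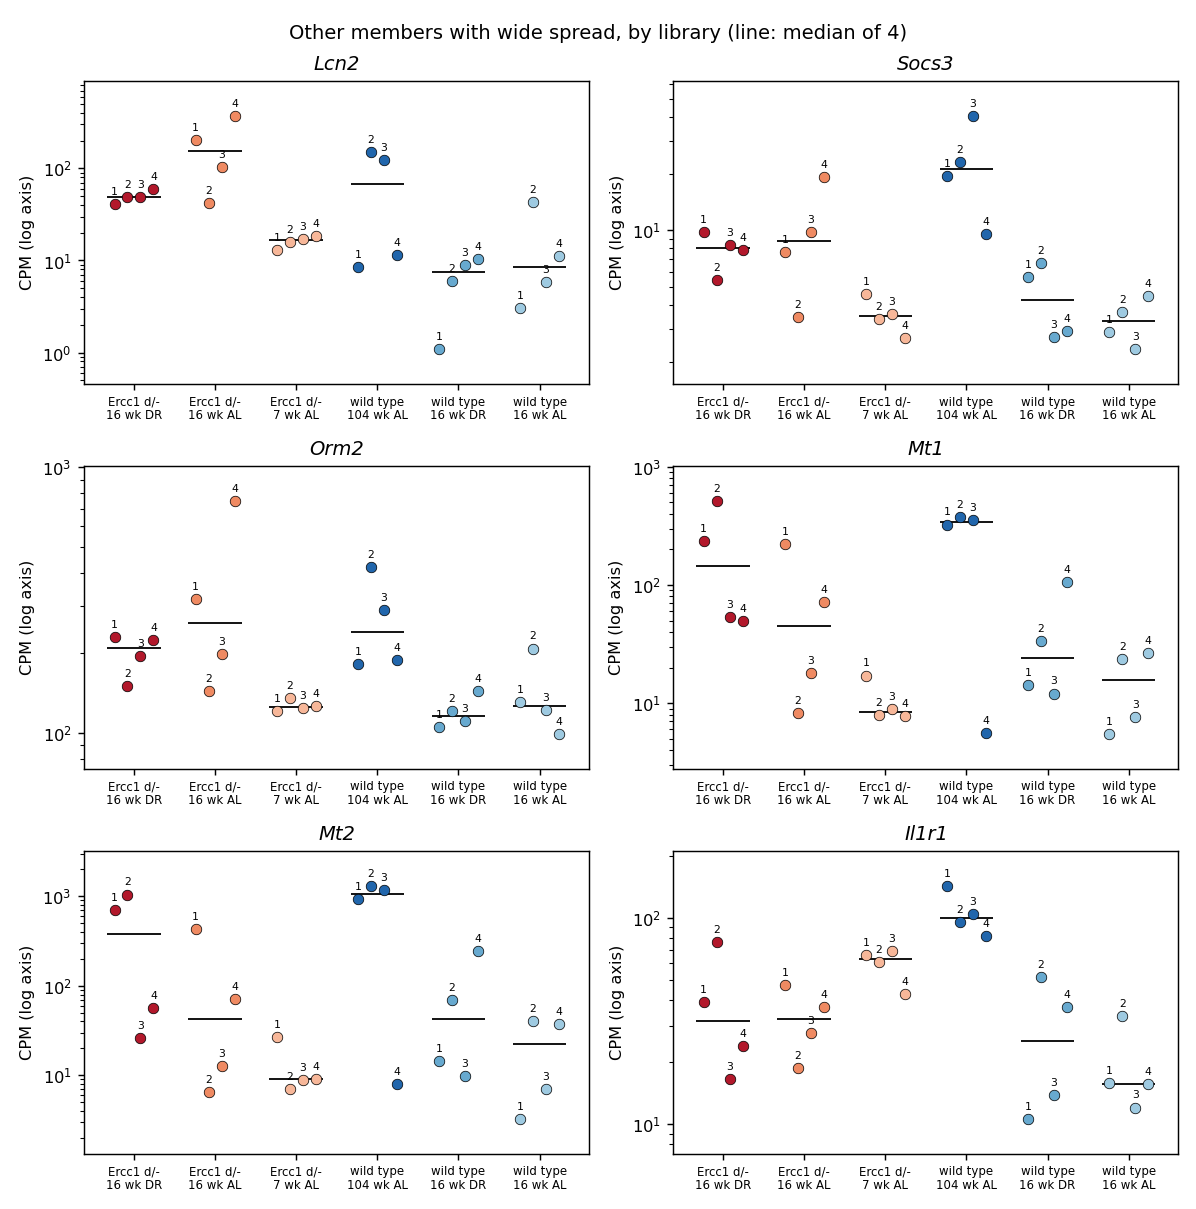
CPM of 6 further members on log axes, with 1 numbered point per library and a line at the median of 4. Lcn2 is high in both 16-week mutant groups and in old replicates 2 and 3, Socs3 and Il1r1 are highest in the 104-week wild type, and in Mt1 and Mt2 old replicate 4 stands far below the other 3 old libraries.

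Among the receptors, only Il1r1 was called. Il1r1 (chr1:40225080-40317257), the signalling receptor for IL-1, stood at 143, 95.3, 104 and 81.6 CPM in the old against 15.8, 33.5, 12 and 15.6 in the young wild type, with no overlap. It rose (2.46 ± 0.50, adjusted p = 0.00317), and the call held without any 1 library (adjusted p at most 0.0167). The freely fed 16-week mutants, at 47.2, 18.6, 27.7 and 36.7 CPM, lay wholly below the old wild type (-1.70 ± 0.49, adjusted p = 0.0222), and this call was lost without replicate 2 or 3 of the freely fed 16-week mutants or replicate 1 of the 104-week wild type (adjusted p up to 0.075). Levels in the 7-week mutants, at 65.7, 60.8, 69.1 and 42.6 CPM, were not called different from those at 16 weeks (-0.87 ± 0.48, adjusted p = 0.559).

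Il6ra (chr3:89864059-89913196), the ligand-binding IL-6 receptor, spread most in the restricted mutants, at 26.5, 45.5, 9.22 and 11.4 CPM, against 13.1, 26.4, 20.2 and 24.4 CPM in the restricted wild type. It stood at 20.1, 22.3, 25.9 and 30.6 CPM in the freely fed 16-week mutants, 45.2, 38.9, 41.4 and 35.5 in the 7-week mutants, 46.6, 27, 53.6 and 30.1 in the old wild type and 26.4, 39.9, 30.2 and 32.8 in the young wild type. Its smallest adjusted p was 0.219, for the freely fed mutants against the old wild type (-0.67 ± 0.35, log2). The group means of Il6st, the shared signalling chain gp130, ranged between 87.2 CPM in the freely fed 16-week wild type and 64 CPM in the restricted mutants, without a call.

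Each of the 3 transcription factors was called in 1 of the 7 comparisons. Stat3 (chr11:100885098-100939540) stood at 124, 178, 154 and 111 CPM in the old against 56.8, 73.4, 74.3 and 75.4 in the young wild type, with no overlap, and rose (1.02 ± 0.26, adjusted p = 0.0127). The call was lost without replicate 2 of the 104-week wild type or replicate 1 of the freely fed 16-week wild type (adjusted p up to 0.0543). Cebpd (chr16:15887286-15891031) stood at 7.11, 6.72, 6.91 and 6.42 CPM in the freely fed mutants against 16.2, 21.9, 22.3 and 9.6 in the old wild type, with no overlap (-1.37 ± 0.26, adjusted p = 0.000641). This call held without any 1 library (adjusted p at most 0.00368). Cebpb (chr2:167688915-167690418) stood at 208, 124, 111 and 153 CPM in the same mutants against 495, 347, 257 and 124 in the old wild type, with overlap (-1.03 ± 0.33, adjusted p = 0.0347), and its call was lost without replicate 2, 3 or 4 of the freely fed 16-week mutants or replicate 1 or 2 of the 104-week wild type (adjusted p up to 0.187).

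Socs3 (chr11:117966079-117970047), which shuts off signalling at gp130 and is itself induced by Stat3, had the smallest adjusted p of any member in ageing. It stood at 19.4, 23.1, 40.5 and 9.6 CPM in the old wild type, 7.68, 3.48, 9.76 and 19.2 in the freely fed mutants and 2.89, 3.66, 2.33 and 4.45 in the young wild type. No old library overlapped the young ones, and among mutants only replicate 2 fell inside the young range. Socs3 rose with age (2.80 ± 0.45, adjusted p = 0.000254), and the call held without any 1 library (adjusted p at most 0.00198). It also rose in the mutant (1.59 ± 0.44, adjusted p = 0.0223), where the call was lost without replicate 4 of the freely fed 16-week mutants or replicate 1 or 3 of the freely fed 16-week wild type (adjusted p up to 0.115). The restricted mutants held 9.75, 5.42, 8.35 and 7.84 CPM and the restricted wild type 5.65, 6.66, 2.7 and 2.91 CPM, the 7-week mutants 4.56, 3.38, 3.6 and 2.67 CPM.

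Il1rn (chr2:24336853-24351494), the antagonist that blocks Il1r1, was read at low counts, near 1 CPM or under in most libraries. It stood at 2.45, 1.02, 0.584 and 1.04 CPM in the restricted against 0.315, 0.627, 0.285 and 0.508 in the freely fed mutants and rose (1.52 ± 0.45, adjusted p = 0.0288), with restricted replicate 1 highest and replicate 3 inside the freely fed range. It was a call that was lost without replicate 1 of the restricted mutants or replicate 1, 3 or 4 of the freely fed 16-week mutants (adjusted p up to 0.181), with the log2 fold change at 0.99 without replicate 1 of the restricted mutants. With age it stood at 0.748, 1.5, 1.01 and 0.873 CPM in the old against 0.222, 0.2, 0.419 and 0.48 in the young wild type without overlap (1.63 ± 0.49, adjusted p = 0.0327), a call that was lost without replicate 2 or 3 of the 104-week wild type or replicate 1, 2 or 3 of the freely fed 16-week wild type (adjusted p up to 0.107). The group means of Nfkbiz, a nuclear IkB protein that IL-1 induces, ranged between 18.6 CPM in the restricted mutants and 7.48 CPM in the freely fed 16-week wild type, with a smallest adjusted p of 0.0576 in ageing (0.84 ± 0.28, log2).

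**Figure D4:**
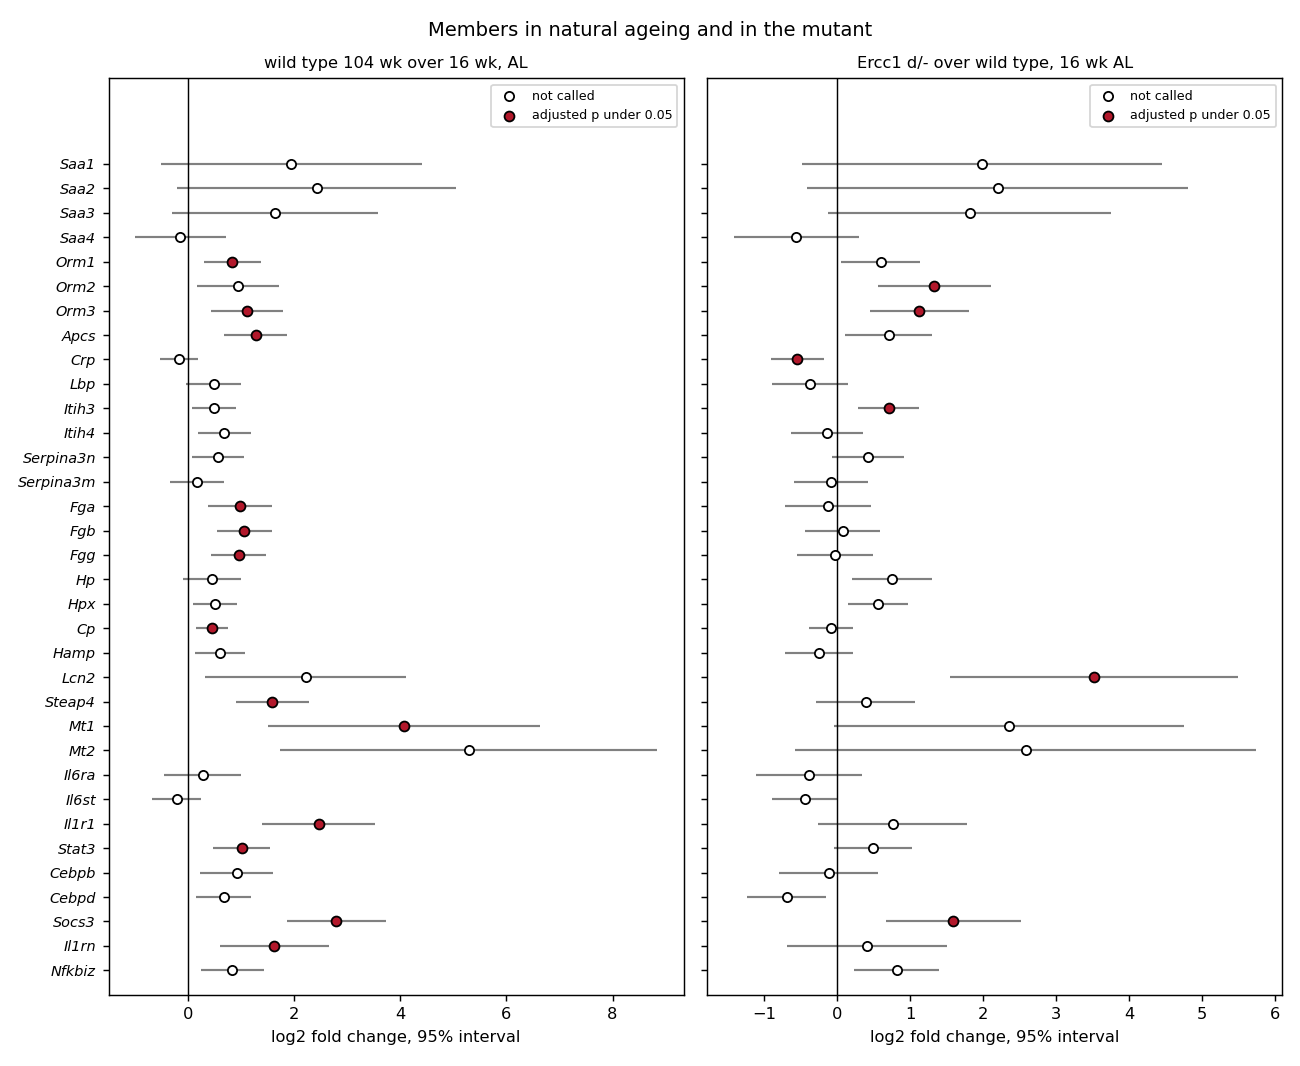
Log2 fold changes of the 34 members with 95% intervals, for the 104-week over the freely fed 16-week wild type (left panel) and for Ercc1 d/- over wild type with free feeding at 16 weeks (right panel). Filled points are called at an adjusted p under 0.05. In the left panel 13 points are filled, all above 0, and in the right panel 5 above and 1 below; the axes of the panels differ.

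Several members stood far higher in some libraries of a group than in the others. A spike was a library with at least 3 times the median CPM of the other 3 of its group and at least 1 CPM. This rule can flag more than 1 library of a group, and many spikes came as such pairs. For Lcn2 it flagged old replicates 2 and 3, at 149.9 and 122.9 CPM. A spike is therefore not always a library apart from all others of its group. There were 44 spikes, in 10 members (Saa1, Saa2, Saa3, Orm2, Orm3, Lcn2, Mt1, Mt2, Il6ra and Il1r1) and 10 libraries, and 24 members had none. The 7-week mutants had none at all. Freely fed mutant replicate 4 had the most, with 8 of 34 members (23.5%) against 0.331% of all genes tested in that library. Young wild-type replicate 2 had 6, and freely fed mutant replicate 1 and restricted wild-type replicate 2 had 5 each. A further 4 libraries had 4 each: restricted mutant replicate 2, old replicates 2 and 3 and restricted wild-type replicate 4. These 8 libraries are the ones left out together in the values given above. The freely fed mutants then keep only replicates 2 and 3, the old wild type 1 and 4 and the restricted wild type 1 and 3. Besides the Saa genes, leaving the 8 libraries out moved 8 called log2 fold changes by over 1.5 times. It was 0.69 for Orm3 and 0.99 for Steap4 with age. In the freely fed mutant over its wild type it was 0.53 for Orm2, 0.43 for Orm3 and 1.01 for Socs3. It was -0.17 for Crp in the restricted mutant over the restricted wild type, 0.81 for Apcs in the mutant at 16 over 7 weeks and -0.49 for Itih4 by restriction in the mutant.

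The largest multiples were those of Saa2 in old replicate 2, at 36.5 times the median of the other 3, and of Mt2 in freely fed mutant replicate 1, at 33.9 times. Some libraries with spikes were the highest of their group for many members, with the spiking ones counted in. Old replicate 2 and young wild-type replicate 2 were each the highest of their group for 24 of 34 members (70.6%), where they were highest for 30.9% and 22% of all genes tested. Freely fed mutant replicate 4 was highest for 22 members (64.7%), against 24.3% of genes. In the restricted groups, libraries with spikes were highest for 38.2% to 47.1% of members, against 23.7% to 29.9% of genes. Other libraries with spikes were near or below the share of genes. Freely fed mutant replicate 1 was highest for 32.4% of members (32.3% of genes). For old replicate 3 it was 17.6% (19.4%), and for young wild-type replicate 4 it was 14.7% (26.2%). Spans of at least 10-fold within a group were found for 2 members in the restricted mutants (1.25% of genes tested), 5 in the freely fed 16-week mutants (1.08%) and 0 in the 7-week mutants (0.733%). In the wild type there were 6 at 104 weeks (3.33% of genes tested), 1 under restriction (2.47%) and 4 with free feeding at 16 weeks (1.64%).

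**Figure D5:**
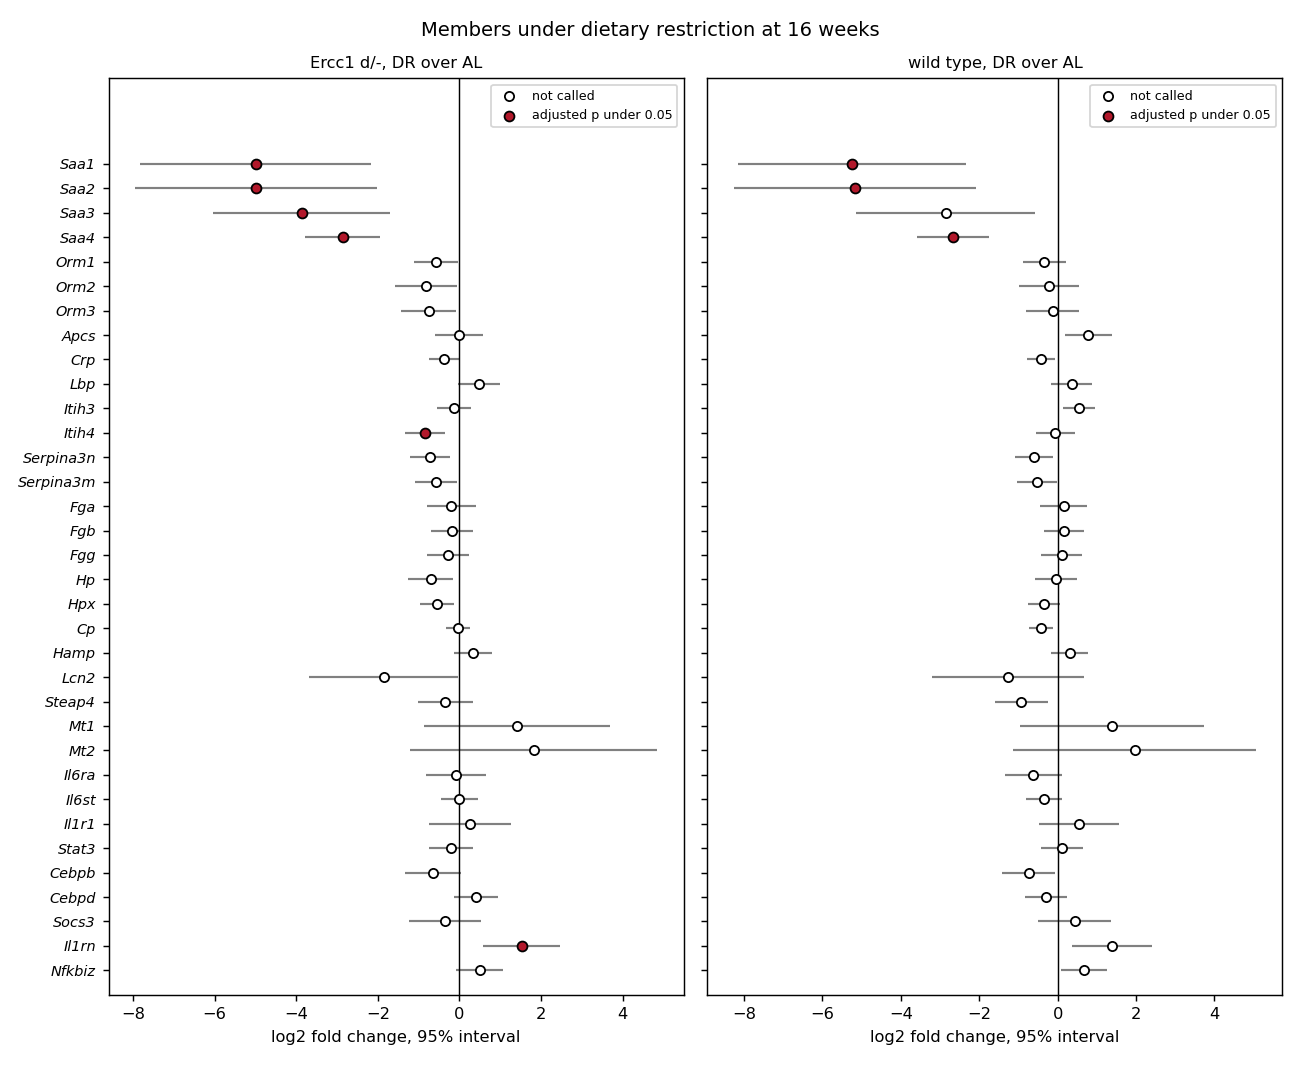
Log2 fold changes of the 34 members with 95% intervals for restricted over freely fed livers at 16 weeks, in Ercc1 d/- (left panel) and in the wild type (right panel). Filled points are called at an adjusted p under 0.05. The 4 Saa genes lie farthest to the left in both panels, with Saa1 at -4.99 in the mutant and -5.25 in the wild type.

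Cytokine transcripts themselves were scarce in these livers. Il6 gave 1 read in the restricted mutants, 2 in the 7-week mutants and 0 in the other 4 groups, and Il22 had none in any group. Il1b ran from 1.16 to 2.21 CPM in the old wild type, against 0.539 to 1.17 CPM in the young. Of 14 IL-6 family ligands and receptors, 8 were tested and 0 were called in ageing or in either mutant comparison with the wild type, with the shares of all genes called as given above. Il22ra1, the hepatocyte receptor chain for IL-22, rose in the restricted wild type (1.30 ± 0.36, adjusted p = 0.0187). Lifr, the receptor for leukemia inhibitory factor, fell in the restricted mutants to 79.2 ± 27.8 CPM, against 180.1 ± 36.7 in the freely fed ones (-1.19 ± 0.26, adjusted p = 0.00335). Osmr, the oncostatin M receptor, was lower in the freely fed mutants than in the old wild type (-1.61 ± 0.45, adjusted p = 0.017).

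A further feedback inhibitor rose with age. Of 17 JAK-STAT genes tested, 1 rose with age, a share near the 5.13% of all genes. It was Socs1, with 6.38 ± 3.59 CPM (mean ± SD, n = 4) in the old against 0.27 ± 0.149 in the young wild type (4.54 ± 0.60, adjusted p = 1.89e-05). In the freely fed 16-week mutants Socs1 was lower than in the old wild type (-2.87 ± 0.52, adjusted p = 0.0005), as was Cish (-2.25 ± 0.45, adjusted p = 0.00167), another cytokine-induced inhibitor. Of 31 IL-1, TNF and NF-kB genes tested, 7 rose and 0 fell with age, where 5.13% of all genes rose and 5% fell, with a median log2 fold change of 0.32 against 0.02 over all genes tested. Bcl3, a nuclear partner of NF-kB, rose to 111 ± 59.9 CPM in the old against 18.1 ± 3.95 in the young wild type (2.62 ± 0.38, adjusted p = 0.000109), and it rose in the freely fed mutant (1.33 ± 0.36, adjusted p = 0.022) and the restricted wild type (1.53 ± 0.37, adjusted p = 0.00785). Tnfrsf1a, the main TNF receptor (1.08 ± 0.23, adjusted p = 0.00306), and the NF-kB subunit Rela (0.71 ± 0.16, adjusted p = 0.00401) rose with age as well.

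Il1rap, the co-receptor of Il1r1, was lower in each 16-week mutant group than in its wild type and in each restricted group than in its freely fed one. It fell in the freely fed mutant (-0.66 ± 0.14, adjusted p = 0.00211), in the restricted mutant against the restricted wild type (-1.10 ± 0.14, adjusted p = 5.79e-06), and by restriction in the mutant (-0.91 ± 0.14, adjusted p = 5.68e-05) and the wild type (-0.47 ± 0.14, adjusted p = 0.0224). Its level was 51.1 ± 6.21 CPM in the restricted mutants, 95.7 ± 3.78 in the freely fed mutants, 109 ± 21.5 in the restricted wild type and 151 ± 19.9 in the freely fed wild type. Cd14, the co-receptor for lipopolysaccharide, rose by restriction in the mutant (2.41 ± 0.53, adjusted p = 0.0036), with values from 3.89 to 32 CPM in the restricted against 1.28 to 3.78 in the freely fed mutants.

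Of 15 other acute phase proteins tested, 8 fell and 1 rose by restriction in the mutant, where 6.33% of all genes fell and 4.91% rose. In the wild type 5 fell and 2 rose, where 7.3% of genes fell and 6.3% rose. Their median log2 fold change was -0.69 in the mutant and -0.18 in the wild type, against 0.00 and 0.04 over all genes tested. C9, the pore-forming complement component, fell in both, to 225 ± 45.7 CPM in restricted against 1094 ± 223 in freely fed mutants (-2.28 ± 0.18, adjusted p = 4.79e-09), and to 109 ± 25.6 CPM in restricted against 633 ± 95.4 in freely fed wild type (-2.54 ± 0.18, adjusted p = 8.43e-10). The mannose-binding lectin Mbl1 also fell in the mutant (-1.52 ± 0.16, adjusted p = 2.36e-07) and the wild type (-0.91 ± 0.15, adjusted p = 0.000272). The complement component C3 instead rose by restriction in the wild type (0.65 ± 0.12, adjusted p = 0.00103). The summed level of the list was 17217 to 19662 CPM in the restricted against 13056 to 18995 in the freely fed wild type. In the mutant it was 14333 to 15207 CPM under restriction against 14980 to 22981 with free feeding. Fgl1, a fibrinogen-related liver protein, rose between 7 and 16 weeks in the mutant, to 761 ± 427 CPM at 16 against 126 ± 5.81 at 7 weeks (2.60 ± 0.54, adjusted p = 0.0299).

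Of 11 plasma proteins that fall in inflammation, 3 rose and 0 fell with age, where 5.13% of all genes rose and 5% fell: Ahsg (1.08 ± 0.13, adjusted p = 3.53e-06), Apoa1 (0.68 ± 0.19, adjusted p = 0.0243) and Trf (0.53 ± 0.16, adjusted p = 0.0377). In the restricted mutant against the restricted wild type 6 fell and 1 rose, where 8.7% of genes fell and 9.58% rose. By restriction 4 fell and 0 rose in the mutant, where 6.33% of genes fell and 4.91% rose. In the wild type 0 fell and 3 rose, where 7.3% of genes fell and 6.3% rose. Of 20 hepcidin and iron genes, 1 rose (5.13% of all genes) and 3 fell (5%) with age, among the falls the transferrin receptor Tfrc (-1.22 ± 0.27, adjusted p = 0.0046). Of 10 glucocorticoid receptor and response genes, 0 rose and 0 fell with age, and 1 fell in each restriction comparison, Pck1, where 6.33% of genes fell in the mutant and 7.3% in the wild type. Of 7 genes of metallothionein regulation and metal transport, 0 were called with age and 1 rose by restriction in the wild type, where 6.3% of genes did.

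Markers of some other cell types moved in several of the same comparisons. Of 12 macrophage and Kupffer cell markers, 5 rose with age (5.13% of all genes), 8 in the freely fed mutant (5.1%) and 12 in the restricted mutant against the restricted wild type (9.58%). The medians were 0.69, 0.78 and 1.23 (log2), against 0.02, 0.02 and -0.03 over all genes tested. Their summed level was 178 to 343 CPM in the old against 121 to 182 in the young wild type, where the ranges overlap, and 289.7 to 401 CPM in the restricted mutants against 97.2 to 171 in the restricted wild type. Of 10 B and plasma cell markers, 4 were tested and 4 rose with age, where 5.13% of all genes did, with sums of 44.6 to 52.9 CPM in the old against 5.45 to 11.6 in the young wild type. Neutrophil markers summed to 11.4 to 14.1 CPM in the old against 8.52 to 11.9 in the young wild type, with Ngp at 0 in both, and 3 of the 4 tested rose. With free feeding the macrophage sums were 185 to 368 CPM in the mutants against 121 to 182 CPM in the wild type. Hepatocyte markers gave 1 rise and 0 falls of 8 with age. Of 8 liver endothelial, 8 stellate cell and fibroblast and 5 bile duct markers tested, 0 were called in either mutant comparison with the wild type. There 5.1% and 9.58% of all genes rose and 4.85% and 8.7% fell. With age 0 of these markers rose, and 1, 1 and 0 fell, where 5% of genes fell. The part of these cells in the members' changes was not tested.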

How the data were processed

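The authors deposited raw counts of reads per gene, from polyadenylated liver RNA, with 13269792 to 20624803 counted in a library. The submitters' processing notes name Trimmomatic 0.39, STAR 2.7.0f, featureCounts (Subread 1.6.4) and the build GRCm38.p6. Strand use and the treatment of multi-mapped reads are not given there. All 22429 gene identifiers matched GENCODE M21. The 34 members and the gene lists were chosen with earlier results of these data known.

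In R 4.3.3, edgeR 4.0.16 kept 12690 genes (filterByExpr), scaled libraries by TMM and fitted 6 group means (18 residual degrees of freedom) with the robust quasi-likelihood F test, with Benjamini-Hochberg adjustment over all genes. The fit was tested on simulated data. Alternatives were DESeq2 1.42.0 and its size factors, other filters and scaling, only the libraries compared, a replicate block, and leaving out libraries. Members called or spiking are given by library, with at least the test of smallest adjusted p, and others by group means. Of a list, up to 3 called genes per comparison, in order of adjusted p, could be named. Between libraries of a group, counts differed beyond counting noise in every pair.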

Additional observations from a re-analysis of the deposited data

Results flagged for a closer look

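In 7 of 204 pairs of member and group, 1 library stood apart from the other 3 beyond Dixon's 95% value for 4 samples, on log2(CPM + 0.5). Chance flags about 1 in 20 groups. In the old wild type Hamp was lowest in replicate 3, at 474.6 CPM, and Mt1 and Mt2 were lowest in replicate 4, at 5.60 and 8.08 CPM. In the restricted mutants Il6st was highest in replicate 2, at 85.7 CPM, and Nfkbiz lowest in replicate 3, at 11.1 CPM. In the restricted wild type Nfkbiz was highest in replicate 4, at 15.5 CPM. In the freely fed young wild type Stat3 was lowest in replicate 1, at 56.8 CPM.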

How the results depend on the processing

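No setting turned the direction of a called value or moved the median of all genes by over 0.1 on the log2 scale. Without a filter on low counts 8 members were called in ageing and 1 for the mutant under restriction. Of 18932 genes, 1098 and 2091 were called there, against 1286 and 2320 of 12690 in the main fit. DESeq2 called 8 members for the mutant at 16 against 7 weeks and 7 for restriction in the wild type. It called 201 and 2105 of 12690 genes, against 87 and 1726 in the main fit. With only the libraries compared, 6 members were called for each of these 2 comparisons and 6 for the mutant against the old wild type. Over all genes these were 568 of 12107, 986 of 11860 and 1372 of 11850. Without the 8 libraries with many spikes, a choice made after seeing the data on the members' own values, 3 were called for the freely fed mutant, 8 for the restricted mutant, 0 for the mutant at 16 against 7 weeks, 11 for restriction in the wild type and 2 in the mutant; this setting has 16 libraries in place of 24, and since they were picked by the outcome its calls are no support. In that setting 825 of 12954 genes were called for the freely fed mutant and 1530 for the restricted mutant. For the mutant at 16 against 7 weeks 29 genes were called, and for restriction 1239 in the wild type and 897 in the mutant. Folds were followed across settings for called values and for some uncalled values of chosen members, and no others were examined. Among those followed, leaving out the 8 libraries reversed 5, none of them called in that setting: Saa2 in ageing (-0.316), Saa3 and Mt1 in the freely fed mutant (-0.154 and -0.037), Saa4 in the restricted mutant (0.027) and Orm2 for restriction in the mutant (0.35). Spikes numbered 67 at 2 times and 26 at 5 times the other libraries. Same-numbered libraries showed no steady shared deviation (correlations between -0.19 and 0.29, not above 0.1 in every pair of any comparison). The main fit did not pair them, although such correlations cannot exclude a link that acts on some genes. With a replicate block, 6 members were called for restriction in the wild type, where 1758 of 12690 genes were called. No other count of members moved by over 1.5 times with the block. Leaving out 1 library at a time gave 5 to 18 calls in ageing, 0 to 10 for the freely fed mutant, 1 to 4 for the restricted mutant, 0 to 6 for the mutant at 16 against 7 weeks, 2 to 10 for restriction in the wild type, 1 to 11 in the mutant, 5 to 12 for the mutant against the old wild type and 0 to 0 for the difference in diet effect. The lowest count came without replicate 1 of the young wild type (ageing), replicate 3 of the young wild type (freely fed mutant), replicate 2 of the restricted mutants or replicates 3 or 4 of the restricted wild type (restricted mutant), replicates 1 or 4 of the 16-week mutants or replicates 1, 2 or 3 of the 7-week mutants (16 against 7 weeks), replicates 3 or 4 of the restricted wild type (restriction in the wild type), replicate 4 of the freely fed mutants (restriction in the mutant) and replicate 2 of the freely fed mutants (against the old wild type). The highest came without replicate 4 of the old wild type for both comparisons with that group, replicate 2 of the restricted wild type for restriction in the wild type, and replicate 2 of the freely fed mutants for 3 further comparisons. Over all genes the same removals gave 792 to 1533 calls in ageing (1286 in the main fit) and 871 to 1082 for the freely fed mutant (1262). They gave 1804 to 2256 for the restricted mutant (2320) and 29 to 76 for 16 against 7 weeks (87). For restriction they gave 1051 to 2009 in the wild type (1726) and 1053 to 1414 in the mutant (1426). Against the old wild type they gave 1380 to 1905 (1861), and for the difference in diet effect 109 to 225 (190). Ageing gave 933 calls without replicate 1 of the young wild type and 1533 without replicate 4 of the old wild type. Restriction in the mutant gave 1053 without replicate 4 and 1106 without replicate 2 of the freely fed mutants. Depth limits Il1rn most, the member with the fewest reads.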
